A study of Mus musculus with 12 samples.

Results

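The RNA of cultured mouse hippocampal neurons before any immunoprecipitation was described from 3 Input libraries, the libraries of total RNA that belong to an RNA immunoprecipitation (RIP) experiment on the m6A-binding proteins YTHDF1, YTHDF2 and YTHDF3. They are 3 of 12 libraries. They were taken by their label, and no measured value was used to choose them. The other 9 libraries hold RNA recovered with an antibody against 1 of the 3 proteins, 3 libraries per protein. All 12 came from primary hippocampal neurons of C57BL/6 mice after 14 days in culture, with no other treatment named.

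By the study's methods, hippocampi of the newborn pups of a litter were pooled without regard to sex, and cytosine arabinoside was given early to limit the growth of glia. Pooled wells of a preparation gave 1 lysate, from which the Input and the RIPs were taken. The replicate number of an Input library is called culture 1, 2 or 3 below. A culture is therefore a pool of animals and not 1 animal. In bulk RNA of this kind, fewer cells of a type and less RNA per cell of that type cannot be told apart.

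Primary hippocampal cultures hold glutamatergic pyramidal and granule neurons and a smaller number of GABAergic interneurons, and they form synapses and become electrically active over the weeks in the dish. The dissociated tissue of a newborn also carries radial progenitors and astrocytes, and the precursors of oligodendrocytes, all of which can divide in culture. The antimitotic drug acts on these dividing cells. Map2 (a dendritic microtubule protein), Camk2a (a kinase of excitatory synapses), Gad1 (which makes GABA) and Gfap (the intermediate filament of astrocytes) mark the main classes.

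The Input libraries held 13338235, 13833973 and 9092494 counts, and 21627 genes had a count in all 3. No count was given to any of the 37 genes of the mitochondrial genome. Replicate numbers did not tie every RIP to an Input library. For each library the deviation of log2 CPM, the count scaled to a fixed library total of 1000000, from its group mean was taken for 16820 genes. Same-numbered libraries of Input and the YTHDF3 RIP deviated together, with Pearson r across genes of 0.835, 0.539 and 0.812. The YTHDF1 RIP gave 0.0895, -0.269 and -0.329 and the YTHDF2 RIP 0.186, -0.326 and -0.318. Library 2 of the YTHDF1 RIP and library 2 of the YTHDF2 RIP were closest to Input of culture 3, with r of 0.471 and 0.568. What lies behind this was not tested.

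The 4 cell type markers showed the same split in TMM-scaled CPM, in which edgeR's trimmed-mean factors correct the library size. Gfap was at 102, 366 and 1266 in Input and at 66.6, 213 and 677 in the YTHDF3 RIP, in the order of the replicate numbers. The order was the same in both. In the YTHDF1 RIP it was at 71.6, 579 and 262 and in the YTHDF2 RIP at 182, 751 and 458, where library 2 was the highest. Gad1 was at 254, 195 and 73.2 in Input, at 377, 226 and 88.4 in the YTHDF3 RIP, at 389, 91.0 and 306 in the YTHDF1 RIP and at 167, 53.7 and 179 in the YTHDF2 RIP. It thus was lowest in library 3 of Input and of the YTHDF3 RIP and in library 2 of the other RIPs. Differences between cultures are therefore given from the Input libraries, and tested in Input together with the YTHDF3 RIP. Because the YTHDF3 RIP was kept for moving with Input, the p-values of that test, those of Gfap and Gad1 included, are conditional on this choice and are not independent evidence of the differences.

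**Figure D1:**
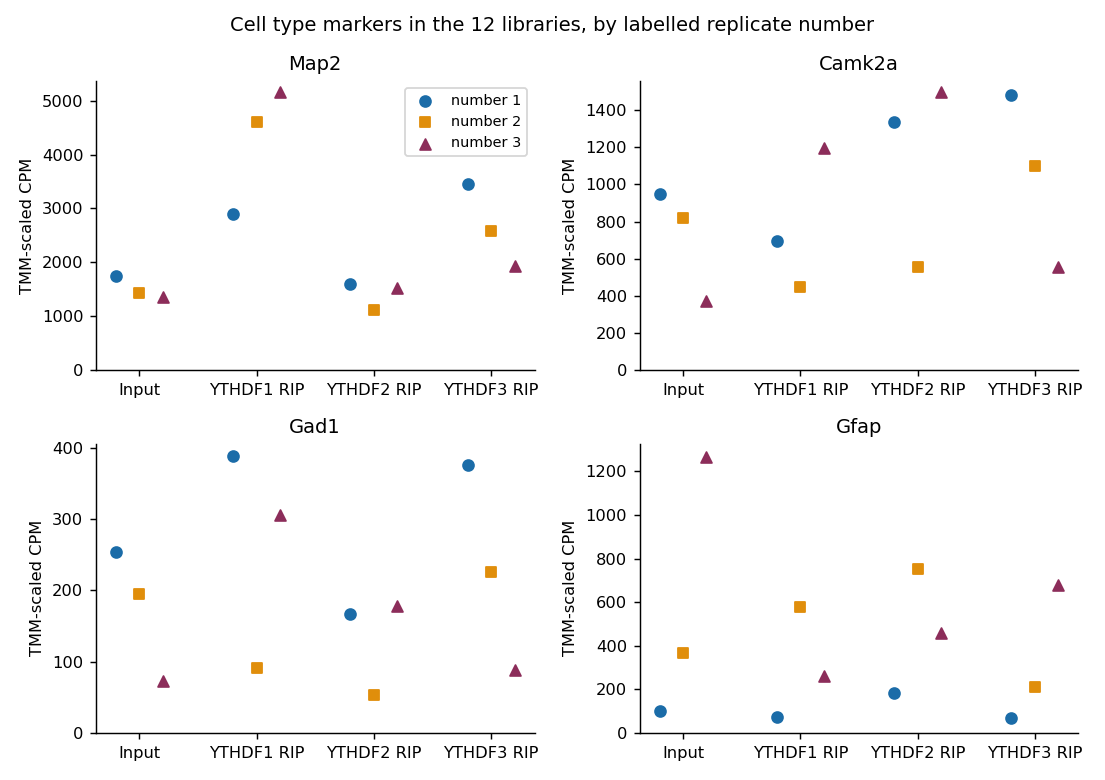
Level of Map2, Camk2a, Gad1 and Gfap in TMM-scaled CPM (vertical axes, from 0) in each of the 12 libraries, by group (horizontal axes), with colour and shape giving the labelled replicate number and each point 1 library. Gfap is lowest in library 1 and highest in library 3 of both Input (102 and 1266 CPM) and the YTHDF3 RIP (66.6 and 677 CPM), while library 2 is the highest in the YTHDF1 and YTHDF2 RIPs.

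The most abundant single RNAs of the Input were not messenger RNAs. Protein-coding genes took 63.2 ± 1.30% of the counts (SD, n = 3), genes annotated as miRNA 18.0 ± 0.729%, and the class misc_RNA, which holds the 7SL RNA of the signal recognition particle, 10.2 ± 0.805%. The 10 genes with the largest shares held 26.3 ± 1.103% of the counts together, in which a read that overlaps several of them is counted for each. Rn7s2 and Rn7s1, copies of the 7SL gene, took 4.23 ± 0.311% and 4.23 ± 0.310%. The small-RNA gene Gm23935 took 4.09 ± 0.390% and the nuclear long non-coding RNA Malat1 0.813 ± 0.193%. The others were Gm47305, Gm47287, Gm24270, Gm47299, Gm47295 and Rn7s6. Of these, Gm47305 and Gm47299 overlap Rn7s2, and Gm47287 and Gm47295 overlap Rn7s1. Reads of 7SL RNA can thus be counted again in the class annotated as miRNA, and the shares of the classes are not separate.

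The sequences of Gm23935 and Gm24187 are shown because they bear on what the counts of such small-RNA genes mean. They are from the GENCODE M21 transcripts (GRCm38), 5′ to 3′ on the strand of the gene. Gm23935 (chr16:11144125-11144181, + strand) and Gm24270 (chr9:56223715-56223771, - strand) have the same 57 bases. In Gm24187 (chr13:9834469-9834525, - strand) 1 base differs, shown as a capital, which is G11A when counted from 1 at the 5′ end of Gm23935.
Gm23935: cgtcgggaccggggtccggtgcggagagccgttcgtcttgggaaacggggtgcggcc
Gm24187: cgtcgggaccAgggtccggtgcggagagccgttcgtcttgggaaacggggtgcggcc
Gm23935 had 568113, 605069 and 331733 counts in cultures 1, 2 and 3, and Gm24270 had 375967, 395814 and 224092. Gm24187, with the substitution, had 44748, 50581 and 23759. Gm24245 has the bases of Gm23935 too and was at 575, 562.5 and 667.6 CPM, where Gm23935 was at 43280, 44350 and 35570 CPM. These genes differed in counts although no base within them tells them apart. Bases beside the genes were not compared, and the origin of the difference was not tested. The counting gave a read to every gene it overlapped and to every place where it aligned. The count of a gene annotated as miRNA is therefore not independent of the counts of genes that share its bases, and it was not read as a level of mature miRNA.

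**Figure D2:**
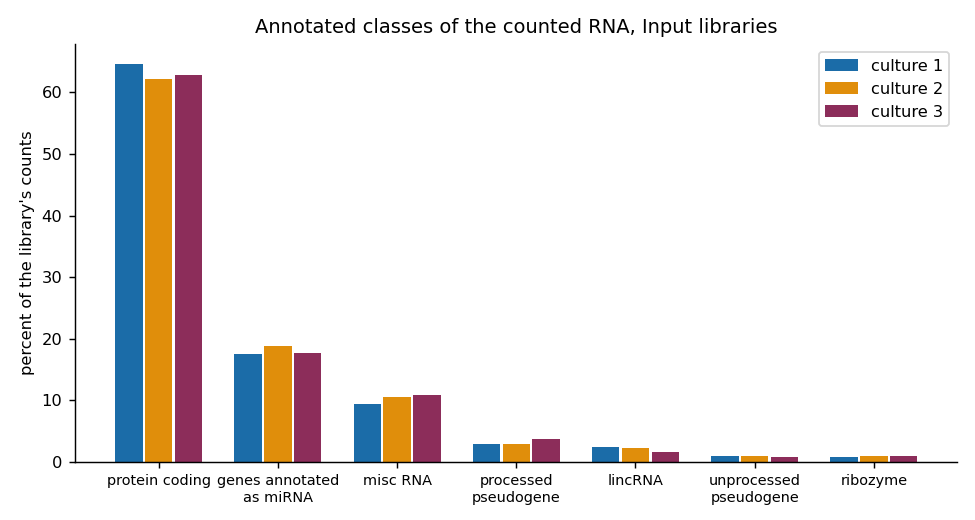
Share of the counts of each Input library (vertical axis, percent, from 0) taken by the 7 largest annotated gene classes, 1 bar per culture. Protein-coding genes take 64.7%, 62.2% and 62.8%, and genes annotated as miRNA 17.5%, 18.8% and 17.7%.

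Levels of messenger RNAs are given as TPM, that is, counts per kilobase of gene length scaled to a fixed total of 1000000 over the protein-coding genes of a library. A TPM of at least 1 was reached by 13339, 13702 and 13830 of 21980 protein-coding genes in cultures 1, 2 and 3, and by 12838 in all 3. A TPM of at least 100 in all 3 was reached by 1727 genes and of at least 1000 by 52. Between 785 and 914 genes made up the upper 50 percent of the TPM of a library.

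Tubulins, ubiquitin and actin led the messenger RNAs. Ubb, a polyubiquitin gene, was at 13958, 12910 and 10627 TPM. Tuba1a, the alpha-tubulin of growing neurons, was at 9136, 5820 and 10214 TPM, lowest in culture 2. Tubb2a, Tubb2b and Tuba1b were at mean levels of 5145 ± 639, 4205 ± 645 and 4011 ± 1063 TPM (SD, n = 3). Actb and Actg1, the cytoplasmic actins, were at 5046 ± 631 and 3803 ± 529 TPM. Hsp90ab1 (a chaperone), Rplp1 (a ribosomal protein) and Eef1a1 (a translation factor) were at mean levels of 3420, 3234 and 3118 TPM. Snurf, of the imprinted Snurf-Snrpn locus, was at 3816, 2892 and 2177 TPM on a gene length of 216 bases. Any read it shares with an overlapping gene is counted for both, so this value was not read as a level of its own.

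Apoe, the lipid carrier made by astrocytes, was the gene among these 15 whose level varied most. It was at 864, 7459 and 5111 TPM. The coefficient of variation (CV) over the cultures was 74.7%, against 5.83 to 27.8% for the other 14. The list also holds Ccnb1ip1 with 26239, 29345 and 29439 TPM, and Gm49450 with 11612, 7442 and 12289 TPM. Ccnb1ip1 overlaps Rpph1, the RNA of ribonuclease P, and Gm49450 overlaps Tuba1a, so that their values under this counting cannot be taken as levels of their own.

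Neuronal genes were abundant in every culture. Over the 14 genes of the pan-neuronal list the summed level was 9516, 6807 and 7341 TPM. Uchl1 (a neuronal ubiquitin hydrolase) was at 1851, 1255 and 1434 TPM and Tubb3 (the neuronal beta-tubulin) at 1393, 828 and 1683 TPM. Gap43, a protein of growing axons, was at 1219, 721 and 1218 TPM. Culture 2 was the lowest for all 3. Map2 was at 704, 597 and 542 TPM, with a mean of 614 ± 82.4 (SD, n = 3).

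Both transmitter classes were present. The excitatory list of 12 genes summed to 4572, 3859 and 2741 TPM, led by Nrgn (a calmodulin-binding protein of spines) at 1197, 1207 and 780 TPM and Camk2a at 841, 754 and 327 TPM. Slc17a7, the vesicular glutamate transporter of hippocampal principal cells, was at 605, 505 and 202 TPM. Slc17a6, which other brain regions use in its place, was at 22.9, 12.6 and 11.3 TPM. The GABAergic list of 18 genes summed to 4562, 3186 and 1779 TPM. Of its genes, the peptide Sst was at 1257, 734 and 476 TPM, the calcium-binding protein Calb2 at 1255, 787 and 339 TPM, and Gad1 at 220, 175 and 63.1 TPM. Culture 3 was the lowest for each of these GABAergic genes. Pvalb, which marks interneurons that mature late, was at 0, 0.482 and 6.10 TPM.

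Genes of the hippocampal subfields were detected, with those of CA2 and the dentate gyrus lowest in culture 3. Prox1, the transcription factor of granule cells, was at 130, 210 and 120 TPM, and Calb1 at 120, 150 and 48.2 TPM. The CA1 list (Wfs1, Mpped1, Fibcd1 and Pou3f1) summed to 158, 160 and 144 TPM, the CA2 list to 560, 554 and 288 TPM, of which Pcp4 held most, and the CA3 list to 220, 187 and 171 TPM. The regulators of forebrain identity, among them Zbtb20 at 288, 269 and 271 TPM, differed little in sum, at 753, 796 and 857 TPM. Of the 12 genes chosen for midbrain, hindbrain and spinal cord, all stayed under 2 TPM. Hoxa5, Hoxb3, Hoxb5 and Hoxc6 had 0 counts in the 3 libraries, and 3 counts in the shallowest library would be 0.498 to 1.13 TPM.

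Among the lists of other cell types that of astrocytes had the largest sum, which reached that of the neuronal lists in cultures 2 and 3. Such a sum depends on the genes chosen and is not a share of the RNA of a culture. The 18 astrocyte genes summed to 2184, 13141 and 13132 TPM. Without Apoe and Fabp7, which held much of the sum, it was 1037, 4565 and 5111 TPM, below the pan-neuronal list in each culture. The 9 genes of oligodendrocyte precursors summed to 129, 985 and 817 TPM. The myelin genes of mature oligodendrocytes stayed low, at 25.5, 50.9 and 37.1 TPM over 11 genes, with Opalin and Aspa at 0 counts in all 3.

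Cells of other origin left few transcripts. The 14 microglial genes summed to 25.2, 34.6 and 89.4 TPM. Trem2 and P2ry12 were at 0 in cultures 1 and 2. The 10 endothelial genes summed to 7.99, 12.1 and 5.61 TPM, the 5 red blood cell genes to 9.30, 15.6 and 22.9, and the 9 genes of ependyma and choroid plexus to 19.5, 25.2 and 57.6 TPM. The 12 genes of mural cells and fibroblasts summed to 15.03, 116 and 61.8 TPM. Each of these classes was below the summed level of the oligodendrocyte precursor genes in the same library.

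**Figure D3:**
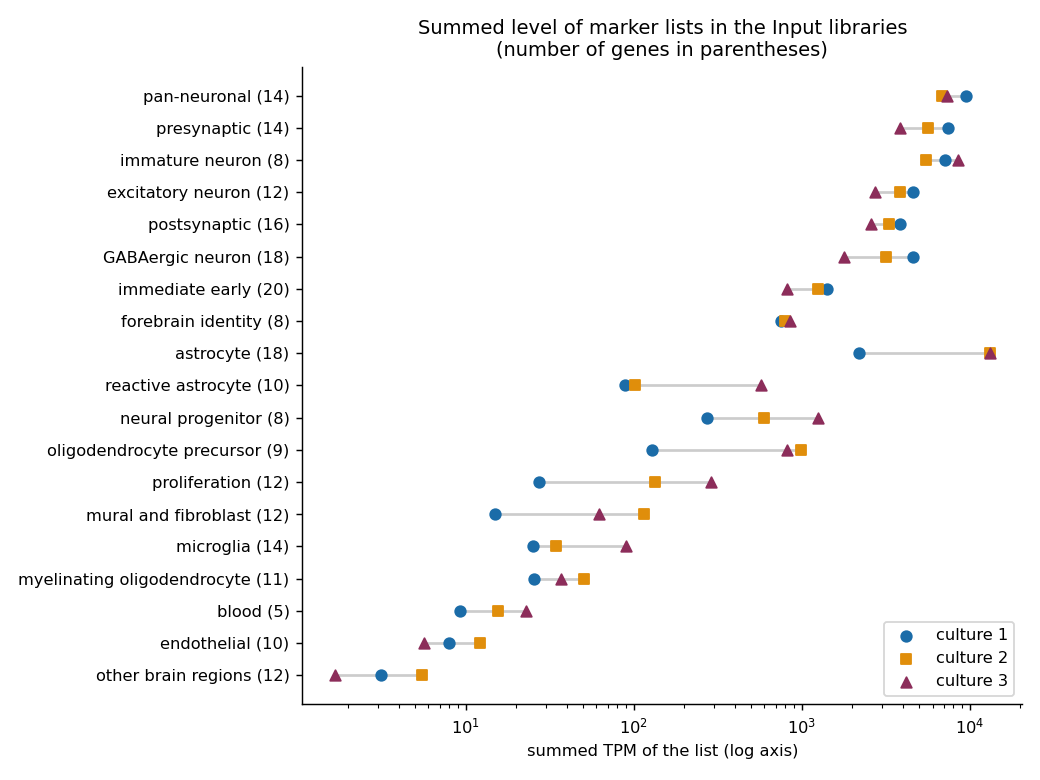
Summed level of marker lists in the 3 Input libraries (horizontal axis, TPM, log scale), with 1 point per culture and a grey line from the lowest to the highest culture. The pan-neuronal, immature neuron, excitatory, GABAergic and synaptic lists lie between 1779 and 9516 TPM in every culture, while the astrocyte list moves from 2184 in culture 1 to 13141 and 13132 TPM in cultures 2 and 3.

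The cultures differed from each other well beyond counting error. Spearman correlations of log2 CPM over genes were 0.970 between cultures 1 and 2, 0.943 between 1 and 3 and 0.974 between 2 and 3. Of 11499 genes with at least 100 normalized Input counts on average, 1410 (12.3%) differed by at least 2-fold between the highest and the lowest Input library. The median CV of these genes was 14.9%. Counting alone gives 10% at 100 counts, the lower limit of this set, and less at higher counts.

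Libraries of 1 lysate were used as repeats to test the differences. The model had a term for the group and a term for the culture (edgeR's quasi-likelihood test, Benjamini-Hochberg adjusted p of at most 0.05). In Input and the YTHDF3 RIP, 6973 of 17298 genes (40.3%) differed between cultures. Culture 2 was higher than culture 1 for 2061 genes (11.9%) and lower for 1154 (6.67%). Culture 3 was higher than culture 1 for 3611 (20.9%) and lower for 3574 (20.7%), and higher than culture 2 for 1696 (9.8%) and lower for 1843 (10.7%). The split between higher and lower genes depended on the scaling. By library size alone culture 3 was higher than culture 1 for 4688 genes and lower for 2619, and with the length trend removed it was 3095 and 4741.

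With all 12 libraries in the same model, in which the numbers of the YTHDF1 and YTHDF2 RIPs enter as they are labelled, 0 of 16820 genes (0.0%) differed between cultures. At an unadjusted p under 0.05 there were 941 (5.59%), and DESeq2 called 78. The p-values of the smaller fit measure the spread between an Input and a RIP library of the same lysate, with 2 residual degrees of freedom. As the YTHDF3 RIP was kept for moving with Input, these p-values are conditional on that choice and are not independent evidence that the 3 cultures differed. They also do not say how cultures in general vary. Each list below is read against the shares just given, and its members that were low in every library were not tested.

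Astrocyte genes were higher in cultures 2 and 3 than in culture 1. Of the 18 genes, 17 passed the filter, 17 were higher in culture 2 and 16 in culture 3 (11.9% and 20.9% of all genes tested), and none was lower. With DESeq2 the counts were 16 and 16. The median log2 ratio of the tested members in Input was 2.32 for culture 2 and 2.57 for culture 3 over culture 1, where that of all genes tested was -0.0023 and 0.017. Gfap was at 160, 595 and 1976 TPM, 3.71-fold higher in culture 2 and 12.3-fold higher in culture 3 than in culture 1. Its log2 difference was 1.78 ± 0.12 (SE) and 3.51 ± 0.13, with edgeR adjusted p of 6.77e-11 and 1.17e-15. Aqp4, the water channel of astrocyte endfeet, was at 21.2, 172 and 330 TPM and Fabp7, a lipid-binding protein of radial glia and young astrocytes, at 283, 1118 and 2910 TPM. These genes and Gfap were highest in culture 3.

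Other astrocyte genes were highest in culture 2. Apoe, the metabolic enzyme Aldoc (82.5, 879 and 444 TPM), the glutamine synthetase gene Glul (73.9, 640 and 338 TPM) and the glutamate transporter Slc1a2 (374, 705 and 406 TPM) belong here. Between cultures 3 and 2, 6 astrocyte genes were higher and 6 lower. Without the YTHDF3 RIP library of culture 2 the number higher was 3, and without Input of culture 2 or 3 it was 4. Those lower in culture 3 were Slc1a2, Aldoc, Glul, Slc4a4, Acsbg1 and Fgfr3, among them enzymes and transporters of mature astrocytes. Those higher were Fabp7, Gfap, Slc1a3, Clu, Aqp4 and Sox9. Slc1a2 was the gene of the list that did not pass the test between cultures 3 and 1, with a log2 difference of 0.12 ± 0.13.

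Genes induced in reactive astrocytes were high in culture 3. Lcn2, a secreted lipocalin, had 2, 0 and 660 counts, or 0.385, 0 and 178 TPM. It was at least 322-fold higher in culture 3 than in culture 2, when 3 counts are taken as the floor of the library at 0. Such lower bounds are on the CPM scale. The complement gene C3 was at 0.393, 0.391 and 75.0 TPM, on 4, 4 and 546 counts, 191-fold and 192-fold higher in culture 3 than in cultures 1 and 2. Serpina3n, a protease inhibitor, was at 69.7, 85.9 and 232 TPM, and Steap4, a metalloreductase, at 0.320, 0 and 32.0 TPM.

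Of the 10 genes of this list 7 were tested, and these 7 were higher in culture 3 than in either other culture under each scaling tried. Timp1, Cxcl10 and Hspb1 were too low for the test, with 8.75, 1.254 and 1.37 TPM in culture 3. C3 and Cd44 are also made by microglia and other cells. The summed level of the 14 microglial genes was highest in culture 3 as well. Of these genes 3 were tested, of which 1 was higher and 1 lower in culture 3 than in culture 1. DESeq2 called none of the 3 between any pair. Among the genes of the list that were highest in culture 3, C1qa was at 0, 3.86 and 16.3 TPM, C1qb at 0, 1.85 and 12.3 and Tyrobp at 0.757, 1.51 and 12.7 TPM. Lyz2, a lysozyme of myeloid cells, was at 3.07, 8.01 and 98.7 TPM and Gpnmb at 2.40, 2.39 and 18.6 TPM. Their part in the level of the reactive genes was not tested.

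Several genes of oligodendrocyte precursors were nearly undetected in Input of culture 1. Sox10, a transcription factor of the lineage, had 0, 253 and 211 counts, or 0, 41.6 and 48.8 TPM, where 3 counts in culture 1 would be 0.496 TPM. It was at least 81.1-fold higher in culture 2 and 99.0-fold higher in culture 3. Gpr17, a receptor of differentiating precursors, had 0, 166 and 139 counts, at least 53.2-fold and 65.2-fold higher. Pdgfra, the growth factor receptor that defines these cells, was at 0.353, 54.4 and 63.7 TPM, 154-fold and 181-fold higher than in culture 1. Its YTHDF3 RIP values were 0.893, 177 and 212 CPM. The other RIPs did not show this near absence. In library 1 of the YTHDF1 and YTHDF2 RIPs, Pdgfra was at 117 and 155 CPM. Sox10 was at 10.75 and 14.35 CPM there and Gpr17 at 41.6 and 13.8 CPM. What lies behind this was not tested. Of 9 genes of the list, 8 were tested, and these were higher in cultures 2 and 3 than in culture 1. Olig1, at 107, 734 and 541 TPM, was the gene of the list with the most RNA left in culture 1. The early myelin gene Enpp6 had too few counts for the test.

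Collagen genes were low in Input of culture 1 as well. Col1a1 was at 0.846, 32.0 and 18.5 TPM and Col3a1 at 0.874, 26.0 and 11.4, both fibrillar collagens of fibroblasts. Of the 12 genes of mural cells and fibroblasts, 7 were higher in culture 2 than in culture 1 and 5 were higher in culture 3, while 6 were lower in culture 3 than in culture 2. With a minimum of 50 counts, which tests fewer genes, 4 were higher in culture 2 than in culture 1 and 3 lower in culture 3 than in culture 2. Igf2, a growth factor that the meninges make, was at 0.706, 54.3 and 8.27 TPM, 74.4-fold higher in culture 2 than in culture 1 on the CPM scale. It was lower again in culture 3, with a log2 difference to culture 2 of -2.54 ± 0.21 (edgeR adjusted p = 7.00e-09).

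Cell cycle genes were lowest in culture 1 and highest in culture 3. The 12 genes summed to 27.5, 133 and 288 TPM, and each of the 12 was higher in culture 2 than in 1, in 3 than in 1 and in 3 than in 2. Mki67, present in dividing cells of all kinds, was at 2.61, 34.6 and 68.0 TPM, 13.3-fold and 26.1-fold higher than in culture 1. Top2a, a topoisomerase of S phase and mitosis, was at 2.18, 13.2 and 33.9 TPM. The replication-dependent histone gene Hist1h1b had 0, 90 and 239 counts. It was at least 28.9-fold higher in culture 2 and 112-fold higher in culture 3 than in culture 1.

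Neural progenitor genes had the same order. The 8 genes summed to 273.5, 597 and 1253 TPM, and the 8 were higher in cultures 2 and 3 than in culture 1. With DESeq2 size factors the number was 7 for culture 2. Eomes, of intermediate progenitors, rested on 2, 2 and 30 counts in Input. Its Input counts were the same in cultures 1 and 2, so its call between them came from the YTHDF3 RIP. Vim was at 112, 206 and 518 TPM, Hopx at 77.9, 162 and 336 TPM, and the Notch target Hes5 at 4.07, 20.6 and 77.7 TPM. Several of these genes, Sox2, Vim and Hopx among them, are expressed by astrocytes too.

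Immature neurons had their own pattern, with culture 3 the highest and no constant order of cultures 1 and 2. Dcx, a microtubule protein of migrating neurons, was at 141, 117 and 247 TPM. Sox11 was at 82.4, 114 and 197 TPM, Sox4 at 68.6, 99.5 and 175 TPM and Igfbpl1 at 11.7, 17.6 and 68.0 TPM. The 8 genes were higher in culture 3 than in culture 2, and 6 were higher in culture 3 than in culture 1. The log2 difference of Dcx between cultures 3 and 1 was 0.99 ± 0.13 (edgeR adjusted p = 1.66e-06), and in the YTHDF3 RIP its values were 224, 228 and 489 CPM.

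GABAergic genes were lowest in culture 3 in nearly the whole list. Of 18 genes, 17 were tested, and 12 of them were lower in culture 2 than in culture 1. In culture 3, 16 were lower than in culture 1 and 12 lower than in culture 2. The shares of all genes tested were 6.67%, 20.7% and 10.7%. None of the 17 was called higher. Pvalb, low in each library as given above, was highest in Input of culture 3. The median log2 ratio in Input was -0.54, -1.34 and -0.90 for the 3 pairs. Gad1 was 3.48-fold lower in culture 3 than in culture 1, with a log2 difference of -1.92 ± 0.12 (edgeR adjusted p = 5.08e-12). Gad2, the other GABA-synthesizing enzyme, was at 227, 178 and 57.9 TPM, and Slc32a1, the vesicular GABA transporter, at 234, 166 and 71.9 TPM. Npy and Vip, interneuron peptides, were at 233, 162 and 67.4 TPM and at 6.08, 9.74 and 1.245 TPM.

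The transcription factors of the lineage were lower than these transmitter genes in level. Dlx1 was at 26.4, 17.8 and 14.4 TPM, Dlx5 at 22.1, 13.3 and 12.8 TPM and Dlx2, which did not pass the test, at 14.3, 8.80 and 13.9 TPM. Culture 1 was the highest for each of them. Lhx6, which interneurons from the medial ganglionic eminence keep, was at 93.4, 63.0 and 36.6 TPM.

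Many excitatory and synaptic genes were lower in culture 3 as well. The median log2 ratio of culture 3 over culture 1 in Input was -0.51 for the excitatory list, -0.61 for the postsynaptic and -0.90 for the presynaptic list, and -1.80 for the tested genes of the dentate gyrus. Camk2a was 2.58-fold lower in culture 3 than in culture 1, with a log2 difference of -1.36 ± 0.13 (edgeR adjusted p = 7.51e-09), and Slc17a7 3.00-fold lower. Map2 was 1.30-fold lower, with -0.57 ± 0.14 (edgeR adjusted p = 0.00233). Bhlhe22, Neurod1 and Tbr1, transcription factors of excitatory neurons, did not pass the test between any pair, with levels of 293, 268 and 298, of 176, 166 and 196 and of 37.2, 38.3 and 33.2 TPM. Of the 12 excitatory genes 7 were lower in culture 3 than in culture 1 and 5 were lower in culture 2. The latter count was 8 with the length trend removed, and 2 or 3 without any 1 of the 4 libraries of cultures 1 and 2. In the dentate gyrus list, 5 of 6 genes were tested. Of these, 4 were lower in culture 3 than in culture 1 and 4 were lower than in culture 2. The sum of this list changed less than its median, at 289, 405 and 178 TPM, 1.62-fold lower in culture 3 than in culture 1. C1ql2, secreted by granule cells at their mossy fibre terminals, was at 21.5, 23.4 and 4.94 TPM, 4.34-fold lower in culture 3 than in culture 1.

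Of 14 presynaptic genes, 13 were lower in culture 3 than in culture 1. Cplx1, a complexin that regulates vesicle fusion, was at 1154, 767 and 501 TPM and the vesicle protein Syp at 923, 730 and 403 TPM. Of 16 postsynaptic genes, 13 were lower in culture 3 than in culture 1. Grin2a, the NMDA receptor subunit that rises as synapses mature, was at 95.8, 81.0 and 41.7 TPM, and Gria1, an AMPA receptor subunit, at 774, 641 and 467 TPM. Shank1, Nlgn2 and Gria2 did not pass.

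Calls between cultures 1 and 2 in these neuronal lists depended on single libraries. Pan-neuronal genes lower in culture 2 numbered 11 of 14 with the 6 libraries, 0 without Input of culture 2, and 6 without Input of culture 1 or without either YTHDF3 RIP library of these cultures. Presynaptic genes numbered 11 with the 6 libraries, and 4, 2, 6 and 4 without Input of culture 1, Input of culture 2 and the YTHDF3 RIP libraries 1 and 2. For the GABAergic list the values were 12 and then 7, 6, 6 and 4. Between cultures 3 and 1 the counts of these lists were 7 to 11 for the pan-neuronal list, 13 throughout for the presynaptic list and 15 to 16 for the GABAergic list when any 1 of the 6 libraries was left out.

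**Figure D4:**
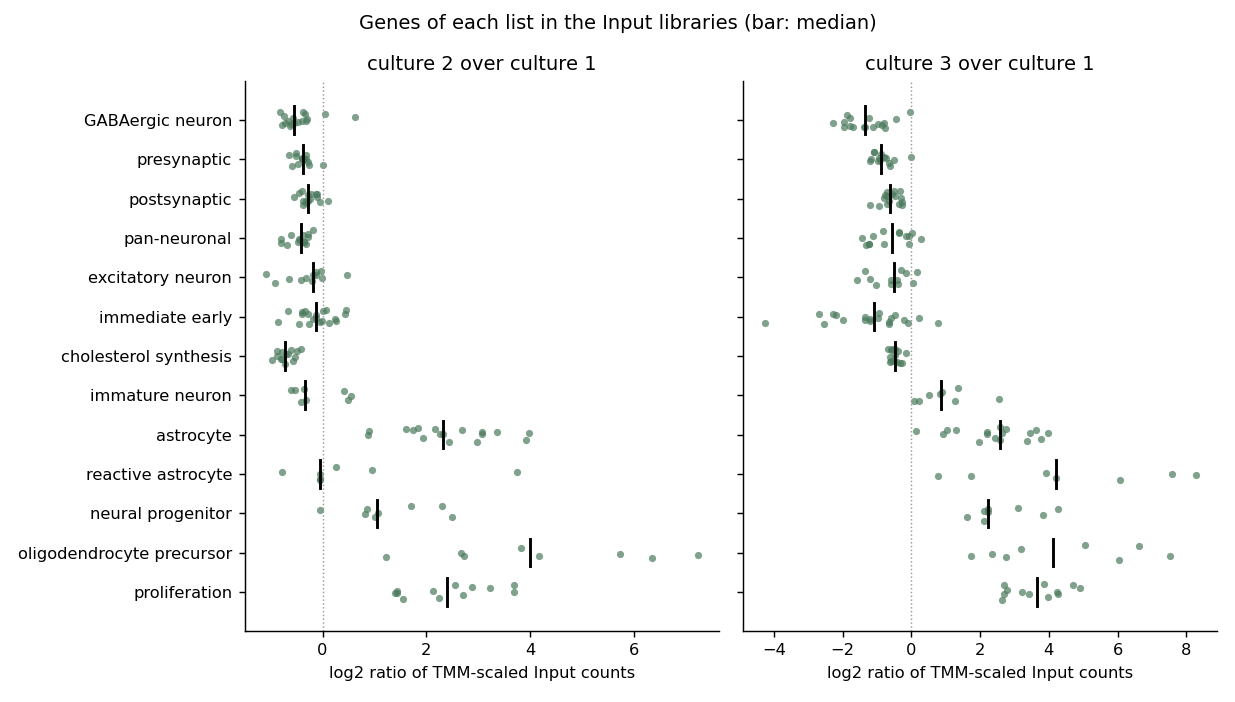
Log2 ratio of TMM-scaled Input counts (horizontal axes) of culture 2 over culture 1 (left) and culture 3 over culture 1 (right) for the tested genes of 13 lists, with each point 1 gene, a bar at the median and counts under 3 set to 3. Astrocyte, progenitor, oligodendrocyte precursor and proliferation genes lie to the right of 0 in both panels apart from 1 progenitor gene, while GABAergic genes lie mostly to the left, with medians of -0.54 and -1.34.

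Genes induced by neuronal activity were lower in culture 3. These immediate early genes are transcribed within minutes when calcium enters an active neuron. Fosb, a subunit of the AP-1 factor, was at 13.2, 9.89 and 0.679 TPM, 19.4-fold lower in culture 3 than in culture 1. Npas4, a neuron-specific factor, was at 33.1, 21.5 and 5.63 TPM, Arc, which acts at synapses, at 30.7, 38.1 and 6.70 TPM, and Egr1 at 87.5, 94.8 and 21.9 TPM. Culture 3 was separate and cultures 1 and 2 were within 1.54-fold of each other for Fosb, Npas4 and Arc.

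Of the 20 genes, 16 were lower in culture 3 than in culture 1 and 15 lower than in culture 2. Egr2 was the exception that was higher in culture 3 than in either, at 5.05, 4.29 and 8.52 TPM, with log2 differences of 0.62 ± 0.21 and 0.72 ± 0.21 (edgeR adjusted p of 0.0182 and 0.0143). Jun was at 201, 285 and 171 TPM, highest in culture 2. Nr4a3, the most abundant of the list, was at 553, 317 and 348 TPM, higher in culture 1 than in the others. Between cultures 2 and 1, 5 genes were lower in culture 2. This count was 9 with the length trend removed, 2 with DESeq2, 3 without Input of culture 1 or 2 and 2 without the YTHDF3 RIP library of culture 1 or 2.

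Further genes that differed most were found across all genes. Lower in both cultures 2 and 3 than in culture 1 were Lsp1, an actin-binding protein of leukocytes, at 29.3, 7.96 and 1.37 TPM, and Vit, a matrix protein, at 23.2, 7.94 and 8.53 TPM. Npr3, a natriuretic peptide receptor, was at 20.4, 6.58 and 6.02 TPM and Hhip, an inhibitor of hedgehog ligands, at 18.0, 6.20 and 8.01 TPM. On the CPM scale these 4 genes were 3.00-fold to 3.80-fold lower in culture 2 than in culture 1. In culture 3 alone, Cntnap1, the contactin-associated protein of axons, was at 5.77 TPM against 52.1 and 36.2, Trim66 at 3.49 against 21.2 and 19.7, and the Ras exchange factor Rasgrf1 at 4.08 against 19.5 and 16.6.

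Shisa3 and the ferroxidase gene Cp were high in culture 3. Shisa3, an inhibitor of Wnt and FGF receptor maturation, had 2, 0 and 211 counts, at least 103-fold higher in culture 3 than in culture 2. Its call between cultures 2 and 1 rested on 0 and 2 counts and was lost with DESeq2 and when Input of culture 2 or a YTHDF3 RIP library of culture 1 or 2 was left out. Cp was at 3.54, 3.41 and 31.3 TPM, 9.55-fold higher than in culture 2 on the CPM scale.

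**Figure D5:**
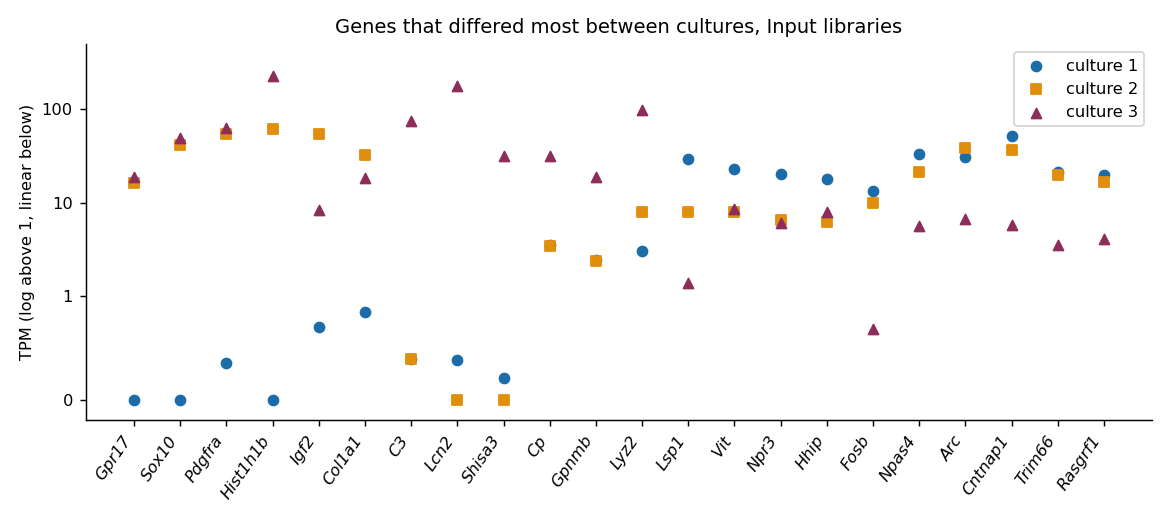
Level of 22 genes that differed most between cultures in the 3 Input libraries (vertical axis, TPM, log scale above 1 and linear from 0 to 1), with 1 point per culture. Gpr17, Sox10 and Pdgfra sit at 0 to 0.353 TPM in culture 1 and at 16.1 to 63.7 in cultures 2 and 3, C3, Lcn2 and Shisa3 are under 1 TPM in cultures 1 and 2, and Fosb, Arc and Cntnap1 are lowest in culture 3.

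Against this background the least variable protein-coding genes were general ones. Tmem126a was at 15.5, 16.0 and 15.4 TPM, the transcriptional regulator gene Mier1 at 14.4, 14.9 and 14.3 TPM and Vps52, of a tethering complex at the Golgi, at 58.4, 60.0 and 58.0 TPM. Uba3, a subunit of the NEDD8-activating enzyme, Polr3a, the largest subunit of RNA polymerase III, and the initiation factor gene Eif2b1 were also among the 10, with Slc2a8, Ttc26, Tut7 and Ubxn4. Their CV over TMM-scaled CPM was 0.101 to 0.486%, below that of counting alone, and they were chosen for it out of 11499 genes.

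The Input is also the reference against which RNAs bound by the YTHDF proteins are judged. Between Input and the mean of the 3 RIP groups over all 12 libraries, 4348 of 16820 genes (25.9%) were higher in Input and 3931 (23.4%) lower (edgeR's quasi-likelihood test, a difference of at least 25% of the lower level and adjusted p of at most 0.05). The 7SL gene Rn7s1 was at 39400, 43900 and 43590 CPM in Input. It was between 68.6 and 2932 CPM in the 9 RIP libraries, a log2 difference of 5.99 ± 0.48.

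Among protein-coding genes, Rplp0 of the ribosomal stalk was higher in Input by 4.06 ± 0.26 on the log2 scale, with 278, 300 and 327 CPM against 7.74 to 36.6. Of the 12 genes of general cell maintenance, 7 were higher in Input and 1 lower. Of the 16 postsynaptic genes none was higher and 9 were lower, Shank1 by 1.39 ± 0.20 on the log2 scale, with 588, 432 and 420 CPM in Input against 873 to 1582. The short peptide genes Cck and Npy were higher in Input by 2.44 ± 0.20 and 2.45 ± 0.44.

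The counts of the cell type lists stand beside shares of 25.9% higher and 23.4% lower in Input over all genes tested. They are not read as a result about a cell type. Of the 12 excitatory genes 1 was higher in Input and 3 were lower, of the 18 GABAergic genes 4 and 2, and of the 8 genes of forebrain identity 0 and 4. Of the 18 astrocyte genes 2 were higher in Input (Aldoc and S100b) and none was lower, and of the 12 cell cycle genes and 9 oligodendrocyte precursor genes none passed in either direction. The Input levels of the astrocyte, cell cycle and oligodendrocyte precursor genes spread widely between cultures, as given above. Within the RIP groups the spread was not the same. Pdgfra was at 0.893, 177 and 212 CPM in the YTHDF3 RIP. It was at 117, 95.1 and 244 CPM in the YTHDF1 RIP and at 155, 155 and 201 CPM in the YTHDF2 RIP.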

How the data were processed

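Total RNA of 3 Input libraries and RNA from 9 RIP libraries was measured with a stranded total-RNA kit from 9 ng of RNA. Per the labels and the study's methods, the authors aligned reads with STAR 2.7.7a, removed duplicates by molecular identifier (UMI-tools 1.1.1) after trimming (cutadapt 3.4), and made the deposited counts with featureCounts 2.0.1 on exons of Ensembl release 97 (GRCm38), strand setting 2, counting every overlapping gene and every alignment. The deposited table has 55573 genes, with raw counts per library. A molecule can therefore give several counts, and counts of repeated, overlapping and duplicated genes are not independent. The authors' tables of RIP against input hold their own fold changes and p-values and were not used. Symbols, classes and sequences came from GENCODE M21 (99.8% of genes matched).

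TPM were computed from the deposited counts and gene lengths over protein-coding genes. Genes whose normalized counts averaged 10 or more were tested with edgeR 4.0.16 (TMM, quasi-likelihood F-test, limma 3.58.1, R 4.3.3), Benjamini-Hochberg adjusted over all genes tested. The standard error is the log2 difference divided by the square root of F. Medians of lists set counts under 3 to 3. The planned test of cultures used group and replicate in all 12 libraries. It called no gene. The fit of Input with the YTHDF3 RIP, where the numbers pair the libraries, had been planned as an alternative setting only. It was then used for the calls. Genes were named by fixed rules. The 4 markers were given in every library. From each list came the most abundant genes, those called with the widest Input range, and those at 0. For each pair of cultures came the 6 highest and 6 lowest log2 differences of genes with at least 100 normalized Input counts and the same direction in each group fitted, without genes lacking a symbol of their own. That the groups were 2 in place of 4 was set after the 12-library result and the pairing check were seen. Genes named to illustrate a list beyond these rules were chosen with their values known. Markers and lists were chosen with earlier results of these data known. Single values of a few listed genes and 1 sequence are not reported here.

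The tests were checked on simulated data. The total count per library was 9092494 to 13833973 in Input and 6020072 to 38909592 in the RIPs. Intervals and floors (3 counts) cover counting error only. Alternatives were DESeq2 1.42.0, its size factors, library size alone, no filter, a minimum of 50, removal of the length trend (loess, span 0.3), each library left out, the replicate number as a block for Input against the RIPs, TPM over all genes and CPM without length. Those applied to the fit of Input with the YTHDF3 RIP were added after seeing the data.

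Same-numbered libraries of Input and the YTHDF3 RIP come from the same lysate per the study's methods, and their deviations correlated with r of 0.835, 0.539 and 0.812. The numbers of the other RIPs did not follow those of Input.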

Additional observations from a re-analysis of the deposited data

How the results depend on the processing

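Between cultures with all 12 libraries, the count of differing genes was 0 in the joint test and in each pair. DESeq2 gave 78 (31 for cultures 1 and 2, 257 for 1 and 3), no filter on low counts 957 (821, 938 and 20 for 2 and 3), and Input with the YTHDF3 RIP alone 6973 (3215, 7185 and 3539). Leaving out 1 library gave 0 to 5 genes jointly, 0 to 1 for cultures 1 and 2 and 0 to 6 for 1 and 3, and 0 for 2 and 3. The 9 RIP libraries alone, the other scalings, a minimum of 50 and removal of the length trend gave 0.

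For Input with the YTHDF3 RIP, DESeq2 gave 5283 genes jointly, of which 5188 (98.2%) were among the 6973 and made up 74.4% of them, and 2343 for cultures 2 and 3. Leaving out 1 library, with 1 residual degree of freedom and the lone library of a culture assumed to vary like the others, gave 5161 to 6574 jointly, 1714 to 3439 for cultures 1 and 2 (2014 without Input of culture 2, 1970 and 1714 without the YTHDF3 RIP of cultures 1 and 2), 4683 to 7107 for 1 and 3 (4683 without the YTHDF3 RIP of culture 3) and 1817 to 4067 for 2 and 3 (2135 and 2213 without Input of cultures 2 and 3, 1817 and 1933 without their YTHDF3 RIPs). The split of higher and lower genes moved with the scaling. For culture 2 over 1 it was 2061 and 1154, with DESeq2 size factors 1921 and 1620, and with the length trend removed 1811 and 2999. By library size alone culture 3 over 2 gave 2406 and 1446, against 1696 and 1843.

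Single genes were recomputed for 48 comparisons, those of the genes that differed most and of the 4 markers, and none of these turned direction. Eif2s3y (-0.73 and -0.47 without the YTHDF3 RIP of cultures 1 and 2) and Gad1 (-0.39 and -0.45) lost their call between cultures 2 and 1, and Map2 that between 3 and 1 (-0.40 without the YTHDF3 RIP of culture 3).

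For Input against the RIPs, the replicate block gave 4304 higher and 3877 lower genes, against 4348 and 3931. Leaving out 1 library gave 3716 to 4801 and 2898 to 4213, and the other alternatives stayed within 1.5 times.

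The list sums depend on the unit. Over all genes the mean TPM were 346 (pan-neuronal), 138 (GABAergic), 411 (astrocyte) and 27.7 (oligodendrocyte precursor), because short RNAs enter the total, and as CPM without length 5094, 1378, 4934 and 283, so that the astrocyte list was then below the pan-neuronal one. Leaving out 1 culture gave 7074 to 8428, 2483 to 3874, 7658 to 13137 and 473 to 901 TPM.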

Other observations

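Cholesterol synthesis genes, which neurons and astrocytes both use, were higher in culture 1. Their 14 genes summed to 3920, 2484 and 2849 TPM. Hmgcs1 was at 1100, 687 and 862 TPM and Fdps at 424, 222 and 262 TPM. Of the 14, 11 were lower in culture 2 and 12 in culture 3 than in culture 1, where 6.67% and 20.7% of all genes tested were. Without Input of culture 2 the number lower in culture 2 was 2, and without Input of culture 1 it was 4. The number lower in culture 3 was 5 without Input of culture 1 or without the YTHDF3 RIP library of culture 3.

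Genes of the integrated stress and unfolded protein responses were lowest in culture 3. Atf4, a factor of the stress response, was at 659, 545 and 315 TPM, Ddit3 at 157, 168 and 46.6 TPM and Atf3 at 30.2, 25.4 and 8.19 TPM, and 9 of 14 genes were lower in culture 3 than in culture 1. The chaperone gene Hspa5 was at 249, 259 and 243 TPM. Hmox1, the inducible heme oxygenase, was at 42.1, 98.1 and 70.2 TPM, higher in cultures 2 and 3 than in culture 1.

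Interferon-induced genes were low, at 21.7, 48.9 and 63.6 TPM over 10 genes. Ifit3 was at 1.45, 6.04 and 6.07 TPM. B2m, often used as a constant gene, was at 82.2, 208 and 303 TPM, and Gusb at 3.89, 7.07 and 10.9 TPM, while Gapdh was at 379, 348 and 311 TPM.

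The methods describe litters of both sexes, yet Xist, which is transcribed from the inactive X chromosome of female cells, was at 0.956, 2.66 and 0.984 TPM. The Y-linked genes Ddx3y and Eif2s3y were at 35.6, 31.5 and 23.4 TPM and at 17.2, 14.0 and 17.3 TPM. The origin of the low Xist counts was not tested.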
